A study of Mus musculus with 18 samples.

Results

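The nuclear-encoded genes of the respiratory chain were followed in retina and in RPE/choroid, the retinal pigment epithelium with the vascular layer behind it, of Abca4 mutant and wild-type mice. Members were chosen by symbol alone, as genes named for a subunit of complexes I to IV or of ATP synthase, which gave 84 of the 22558 genes in the deposited tables. They comprise 36 genes of complex I (Nduf), 4 of complex II (Sdh), 8 of complex III (Uqcr), 19 of complex IV (Cox) and 17 of ATP synthase (Atp5), and 1 further symbol that matches the pattern is not reported here. The choice by symbol also takes in Cox4nb, now called Emc8, which encodes a subunit of a membrane protein insertion complex of the endoplasmic reticulum and lies beside Cox4i1. The 13 subunits encoded by mitochondrial DNA were not analysed here.

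Mitochondrial respiration passes electrons from NADH through complex I, or from succinate through complex II, to coenzyme Q, then through complex III and cytochrome c to complex IV, where oxygen is reduced. The protons pumped on the way drive ATP synthase. Photoreceptors pack mitochondria into the inner segment but also run glycolysis at a high rate, while the pigment epithelium is known to rely on oxidative metabolism. Several complex IV subunits exist as a form made in most tissues and a form made in heart and skeletal muscle.

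Total RNA of mice aged 30 days, of mixed 129SV and C57BL/6 background, was sequenced from 3 libraries for each genotype and tissue, 18 in all. The genotypes were wild type, Abca4-/-, called knockout below, and mice homozygous for the allele carrying L541P and A1038V in Abca4, called knock-in below. Abca4 encodes a lipid transporter of photoreceptor discs. Since nothing states that each library of a group is another animal, p-values cover only the spread among these libraries, which may be technical at least in part.

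Retinal libraries held 11.55 to 23.58 M assigned fragments and RPE/choroid libraries 14.62 to 30.05 M. Abca4 itself stood at 73.9 to 81.8 FPKM (fragments per kilobase of transcript, scaled to library size) in knockout retina and 228 to 283 in wild-type retina. In RPE/choroid it stood at 25.6 to 26.5 FPKM in knockout and 35.4 to 59.5 in wild type. Its knockout difference was called in retina (log2 -1.68, adjusted p = 4.33e-08, edgeR) but not in RPE/choroid (log2 -0.79, adjusted p = 0.102, edgeR), where it was called without wild-type library 2 (log2 -0.53, adjusted p = 0.00512). Summed over 10 rod genes, RPE/choroid libraries held 113 to 457 FPKM, except wild-type library 2 with 2367. Summed over 14 genes of skeletal muscle, all RPE/choroid libraries held 4585 to 9374 FPKM against 4.58 to 8.22 in retina. The 10 RPE markers summed to 7286 to 12030 FPKM in RPE/choroid and 320 to 424 in retina, so the labelled tissues carried their markers. By Xist and Ddx3y, 6 of 9 retinal libraries were female, all 3 knock-in ones among them, and 1 of 9 RPE/choroid libraries was. By this call, wild-type retina, knockout retina and knock-in RPE/choroid each held libraries of both sexes. The libraries of such a group were thus not all of the same animal. In bulk tissue, fewer cells of a type and less RNA per cell cannot be told apart.

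The members were among the abundant transcripts of both tissues. In retina, 54 of 84 had a mean of at least 100 FPKM over the 9 libraries, and the median member stood at 135 FPKM against 12.4 for all genes at 1 FPKM or more. In RPE/choroid, 67 members reached 100 FPKM, and the medians were 199 FPKM for members and 11.6 for all such genes. Together the members took 0.820% to 0.928% of the fragments in retinal libraries and 1.22% to 1.38% in RPE/choroid libraries, so that the ranges of the tissues did not overlap.

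In complexes I and IV the highest and the lowest member were the same in both tissues. In complex I the highest level belonged to Ndufa4, a small subunit since placed in complex IV, with a mean of 592 FPKM in retina and 887 in RPE/choroid. Ndufa11, a membrane-arm subunit, was the lowest at 17.8 and 27.1 FPKM. In complex IV, Cox8a led with 680 and 949 FPKM, followed by Cox4i1 with 504 and 703. ATP synthase was led in retina by Atp5b, the catalytic beta subunit, at 690 FPKM, and in RPE/choroid by Atp5k, a small membrane subunit, at 1018.

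In complex III, Uqcrh, the hinge protein, was highest in retina at 293 FPKM and Uqcr11 in RPE/choroid at 539, while Uqcrfs1, the Rieske iron-sulfur protein, was lowest in both at 81.1 and 149 FPKM. Complex II was led in retina by its flavoprotein Sdha at 118 FPKM, with the membrane anchor Sdhd lowest at 51.0. In RPE/choroid that order turned: Sdha was the lowest of the 4 at 120 FPKM and Sdhc the highest at 160. At the bottom, Cox8c had 0 fragments in all 18 libraries, which at 3 fragments over 344.5 M allows up to 0.00871 fragments per M, and Cox7b2 had 0 to 5 fragments in a library. The lowest of the ATP synthase symbols were Atp5s in retina at 8.84 FPKM and Atp5sl in RPE/choroid at 7.08. The retinal and the RPE/choroid FPKM tables were scaled separately by the authors, so tests between tissues were run on fragment counts of all libraries in 1 fit.

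Nearly every member was higher in RPE/choroid than in retina. With edgeR's quasi-likelihood test and Benjamini-Hochberg adjustment over all 16222 genes tested, 74 of 82 tested members were called higher in wild-type RPE/choroid, where 44% of all genes were called higher. Another 3 were called lower, where 41.9% of all genes were, and 5 were not called. The median difference was 0.70 on the log2 scale for members and 0.04 for all genes. At least 1.5-fold higher levels were found for 72.0% of members and 37.1% of all genes, while 14 members were at least 2-fold higher. The 14 summed muscle markers stood at 4585 to 6545 FPKM in wild-type RPE/choroid and at 4.58 to 8.22 in wild-type retina. The part of muscle in the difference of the members as a whole was not tested.

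Short transcripts outside the chain were also mostly higher in RPE/choroid. Among genes whose main transcript, the one with the highest summed FPKM, is under 700 bases, the median log2 difference was 0.73 for 44 members and 0.58 for 477 other genes. For the 201 of these others with a mean of at least 4 on the log2 scale of counts per M it was 0.80, and 15.9% of them were lower. From 700 up to 1500 bases the medians were 0.76 for 26 members, 0.35 for other genes and 0.35 for the abundant ones. At 1500 bases or more they were 0.48 for 12 members, -0.06 and -0.13. The bounds of these classes were set after the data were seen, and the differences between members and other genes were not tested.

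Most genes of each complex were called higher in RPE/choroid, where 44% of all genes were. The median log2 difference was 0.69 in complex I (34 of 36 called higher), 1.10 in complex II (3 of 4), 0.69 in complex III (8 of 8), 0.75 in complex IV (14 of 17) and 0.80 in ATP synthase (15 of 17), and differences between complexes were not tested.

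**Figure D1:**
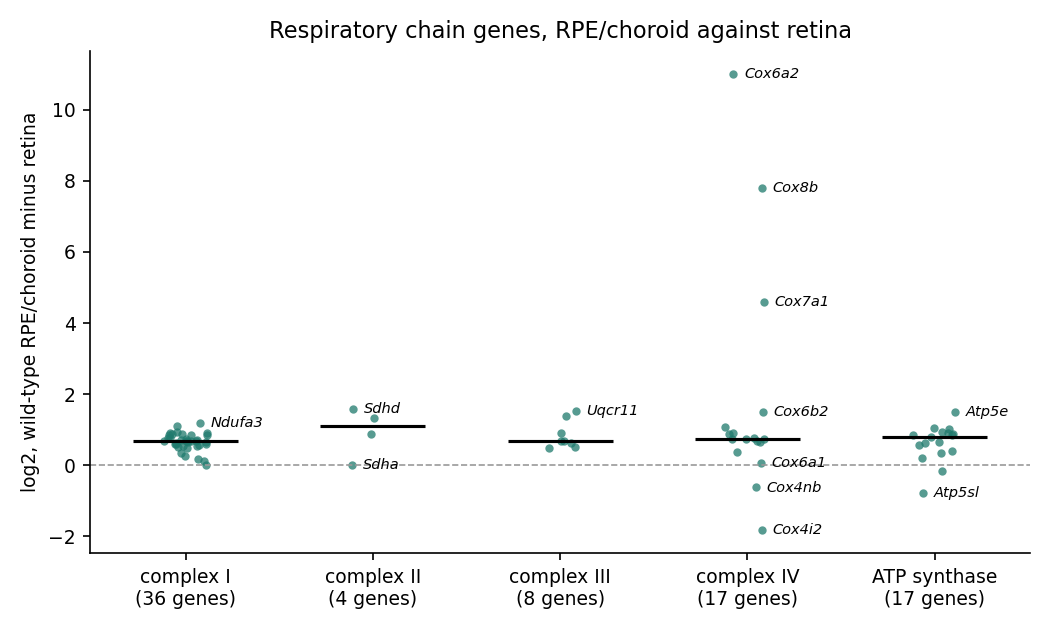
Log2 difference between wild-type RPE/choroid and wild-type retina (3 libraries each) for the 82 tested members by complex, with 1 point per gene and a black bar at the median of each complex. Most points lie between 0 and 1.6, with Cox6a2, Cox8b and Cox7a1 far above and Cox4i2 lowest at -1.83.

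In complex II the subunits parted. Sdhd, an anchor of the complex in the inner membrane, stood at 56.7, 52.7 and 50.2 FPKM in wild-type retina and at 163, 158 and 162 FPKM in wild-type RPE/choroid, in the order of the tables' library numbers 0, 1 and 2, as throughout. Its log2 difference was 1.59 (SE 0.052, adjusted p = 5.29e-14, edgeR). The iron-sulfur subunit Sdhb differed by 1.32 (SE 0.070) and Sdhc by 0.89 (SE 0.064), both called. Sdha, the flavoprotein, had 118, 119 and 114 FPKM in retina and 106, 114 and 126 in RPE/choroid, so that the groups overlapped, and its log2 difference was 0.01.

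In complex III the largest differences were those of the small subunits Uqcr11 at a log2 of 1.53 (SE 0.080) and Uqcr10 at 1.37 (SE 0.088), followed by Uqcrfs1 at 0.90. Uqcr11 stood at 229, 234 and 183 FPKM in wild-type retina and at 606, 569 and 463 in wild-type RPE/choroid. In ATP synthase, Atp5e, the epsilon subunit of the stalk, differed by 1.49 (SE 0.083), Atp5g1 by 1.04 and Atp5l by 1.02. In complex I the accessory subunits Ndufa3, Ndufa13 and Ndufb10 differed by 1.20, 1.11 and 0.92. Each of these 9 passed the test, and none of their wild-type groups overlapped between tissues.

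The 3 members called lower in RPE/choroid included 2 whose products are not known as subunits of the chain. Cox4nb differed by a log2 of -0.62 (SE 0.070). Atp5sl, listed as Dmac2 in RefSeq and known as an assembly factor of complex I, differed by -0.79 (SE 0.070). The third was Cox4i2, the form of subunit 4 known from lung and low oxygen, at 26.5, 23.8 and 25.8 FPKM in wild-type retina and 5.67, 4.51 and 6.71 in RPE/choroid, a log2 difference of -1.83 (SE 0.219, adjusted p = 6.54e-07, edgeR). Its partner Cox4i1 was called higher in RPE/choroid by 0.73. The members with no call were Sdha, Ndufa10, Ndufv3, Cox6a1 and Atp5s.

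The muscle forms of complex IV subunits made the largest differences. Cox6a2 had 1, 0 and 0 fragments in the wild-type retinal libraries and 1169, 1726 and 1095 in wild-type RPE/choroid. Scaled to the total fragments of the libraries this is a ratio of 2470, with an exact 95% interval of 442 to 97400 that covers counting error only. Cox8b stood at 2.36, 3.38 and 3.27 FPKM in wild-type retina and at 597, 586 and 528 in RPE/choroid, a log2 difference of 7.80 (SE 0.224). Cox7a1 stood at 6.502, 10.01 and 8.81 FPKM in retina and at 184, 184 and 164 in RPE/choroid, a log2 difference of 4.60 (SE 0.148). The summed muscle markers given above, none of which is a member, differ between the tissues in the same direction, and their part in these values was not tested.

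Their partners differed far less. Cox6a1 was at 395 ± 16.7 FPKM in wild-type retina and 346 ± 22.9 in RPE/choroid (SD, n = 3), and its log2 difference of 0.07 was not called, turning to -0.0019 without wild-type RPE/choroid library 2. Cox7a2 and Cox8a were called higher in RPE/choroid by 0.75 and 0.68. In RPE/choroid, where lengths are accounted for by FPKM, Cox8b at 570 ± 36.9 FPKM in wild type was thus of the order of Cox8a at 1002 ± 35.9, and Cox7a1 at 177 ± 11.3 of the order of Cox7a2 at 316 ± 12.5.

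Of the other subunits with several genes, subunit 6b kept its order. Cox6b2, known from testis, was called higher in RPE/choroid by a log2 of 1.5 (SE 0.219) but stayed low, at 21.4 ± 4.31 FPKM beside 579 ± 9.03 for Cox6b1, which was called higher by 0.88. Cox7b was called higher by 1.07. The genes for subunit c of ATP synthase, whose mature proteins are the same, differed by 1.04 for Atp5g1, 0.39 for Atp5g2 and 0.80 for Atp5g3, all called higher in RPE/choroid. Atp5g3 had the highest mean of the 3 in both wild-type tissues, while Atp5g1 and Atp5g2 changed places. In wild-type retina Atp5g2 at 224 ± 32.2 FPKM lay above Atp5g1 at 151 ± 16.7, and in wild-type RPE/choroid, at 276 ± 26.3 and 295.5 ± 20.7, they overlapped (SD, n = 3). Uqcrh was called higher by 0.68. Many members have processed copies elsewhere in the genome, and the sources used here do not say how reads shared with such copies were counted, so levels of single members carry that uncertainty.

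**Figure D2:**
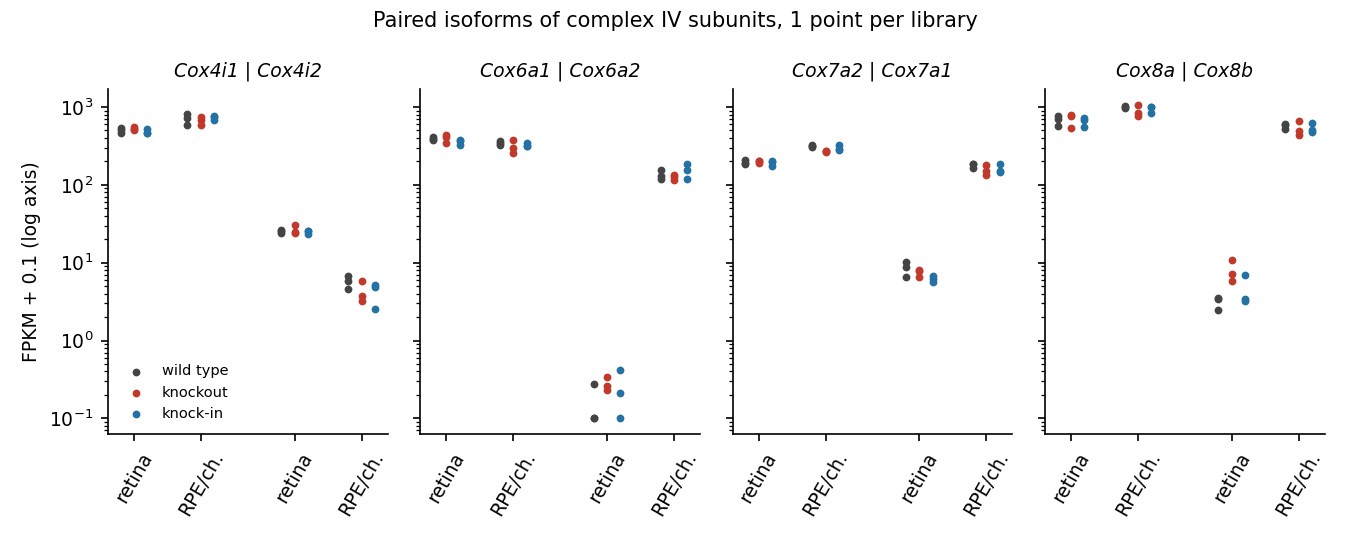
FPKM + 0.1 on a log axis for paired complex IV isoforms in the 18 libraries, 1 point per library, the form of most tissues at the left and the other at the right of each panel. Cox6a2, Cox7a1 and Cox8b lie near or under 10 in every retinal library and over 100 in every RPE/choroid library, while Cox4i2 is lower in RPE/choroid.

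The promoters of the Cox7a and Cox8 pairs are shown because each pair joins a gene that was high in both tissues to one that was high only in RPE/choroid. The windows run from 250 bases before to 50 bases after the RefSeq start on the GRCm38.p6 assembly and are written 5′ to 3′ on the gene's strand, with matches to the ETS/GABP core CCGGAAG on either strand in capitals.
Cox7a2, chr9:79759804-79760103, minus strand: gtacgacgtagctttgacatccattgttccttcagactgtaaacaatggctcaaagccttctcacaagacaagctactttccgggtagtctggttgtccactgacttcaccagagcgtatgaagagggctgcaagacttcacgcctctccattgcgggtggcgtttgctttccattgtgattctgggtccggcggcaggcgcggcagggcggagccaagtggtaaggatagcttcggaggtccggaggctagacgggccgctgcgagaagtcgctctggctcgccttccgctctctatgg
Cox7a1, chr7:30183921-30184220, plus strand: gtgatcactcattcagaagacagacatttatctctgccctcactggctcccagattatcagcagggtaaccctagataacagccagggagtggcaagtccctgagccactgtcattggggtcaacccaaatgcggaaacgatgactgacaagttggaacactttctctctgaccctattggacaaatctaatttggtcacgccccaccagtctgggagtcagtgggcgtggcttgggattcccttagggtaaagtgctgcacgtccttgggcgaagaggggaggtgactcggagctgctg
Cox8a, chr19:7217567-7217866, minus strand: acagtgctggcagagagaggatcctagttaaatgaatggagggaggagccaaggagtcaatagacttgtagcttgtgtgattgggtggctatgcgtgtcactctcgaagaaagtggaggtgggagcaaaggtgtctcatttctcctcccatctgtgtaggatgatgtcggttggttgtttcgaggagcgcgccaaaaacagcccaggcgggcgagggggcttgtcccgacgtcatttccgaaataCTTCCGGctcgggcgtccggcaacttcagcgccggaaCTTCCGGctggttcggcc
Cox8b, chr7:140900397-140900696, minus strand: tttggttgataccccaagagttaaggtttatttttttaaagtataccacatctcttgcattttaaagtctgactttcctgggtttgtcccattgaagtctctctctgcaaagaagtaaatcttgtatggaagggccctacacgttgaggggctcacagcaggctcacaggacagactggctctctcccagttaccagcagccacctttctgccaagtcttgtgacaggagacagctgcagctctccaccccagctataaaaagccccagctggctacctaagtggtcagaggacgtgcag

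These windows differ in CG dinucleotides, of which Cox7a2 has 20 and Cox7a1 has 7, Cox8a has 19 and Cox8b has 2. The median was 19 in the 69 members with a RefSeq window and 15 in 17492 protein-coding genes, taking the richest window of a gene. Under 10 such pairs were found in 4 members, or 5.80%, namely Cox7a1, Cox8b, Cox7b and Ndufc2, and in 40.5% of protein-coding genes. This count was chosen after the sequences were seen.

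Motifs of 3 factors known to act on respiratory genes were searched on both strands of the same windows. The NRF1 core CGCATGCG, which is its own reverse complement, was present in 9 of 69 members (13.0%) and in 2.07% of all 27025 genes with a window. The ETS/GABP core CCGGAAG was in 16 members (23.2%) and 9.93% of all genes, and the YY1 core AAGATGG, which can overlap the ETS/GABP core by its AAG, in 12 members (17.4%) and 7.28%. Of other protein-coding genes, 2.73% held the NRF1 core, 12.9% the ETS/GABP core and 7.14% the YY1 core. At least 1 of the 3 was found in 31 members (44.9%) and 17.9% of all genes, or 20.9% of other protein-coding genes. Of the 4 windows shown, only that of Cox8a holds any of these letters. A match is a string of letters, not a measured site. The NRF1 and ETS/GABP cores hold CG themselves, and the genes compared were not matched for CG dinucleotides.

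Pathway genes around the chain did not all share the direction of the members. Between the wild-type tissues, 44% of all genes were called higher in RPE/choroid and 41.9% lower. Of 18 genes of the citrate cycle and pyruvate entry, 14 were called higher in wild-type RPE/choroid and 0 lower, with Pdha1, a pyruvate dehydrogenase subunit, at a log2 of 1.40 and Suclg2, a succinyl-CoA synthetase subunit, at 3.93. Of 18 tested electron carriers and entry enzymes, 10 were called higher and 3 lower, with Etfb and Etfdh, which pass electrons from fatty acid oxidation to coenzyme Q, at 2.71 and 1.70. Glycolysis went the other way, with 15 of 17 genes called lower and 2 higher, among them Hk1, hexokinase 1, at -2.71 and Pfkl, a phosphofructokinase, at -1.58.

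Factors that build the chain and its genes' regulators showed no common direction. Of 29 tested assembly factors, 6 were called higher and 11 lower, beside 44% and 41.9% of all genes, with a median of -0.03. Ttc19, needed for complex III, was at -1.19 and Lrpprc, which stabilises mitochondrial mRNAs, at -0.77. Of 17 biogenesis regulators, 5 were called higher and 8 lower, with Gabpb1, a GABP subunit, at -0.98 and Polg2, a subunit of the mitochondrial DNA polymerase, at -2.40.

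The tissue difference recurred in both mutants. In knockout mice 71 of 82 members were called higher in RPE/choroid (43.9% of all genes), with a median log2 of 0.58, and in knock-in mice 73 (44.3% of all genes), with a median of 0.73. In total 71 members were called higher in all 3 genotypes, and Cox4i2, Cox4nb and Atp5sl were called lower in all 3.

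Transcript forms of several members shifted between tissues in the authors' transcript estimates, and 2 are described first. Ndufv3, a complex I subunit, has a short form of 487 bases and a long form of 1579 bases. The long form made up 14.9% ± 1.01 of its FPKM in wild-type retina and 7.32% ± 0.864 in wild-type RPE/choroid (SD, n = 3). In the mutants it made up 15.1% ± 1.40 and 15.5% ± 1.30 in retina and 8.23% ± 0.425 and 8.12% ± 0.300 in RPE/choroid, knockout first. For Atp5g1 the form of 805 bases made up 45.4% ± 3.80 in wild-type retina and 60.3% ± 2.15 in wild-type RPE/choroid, beside the form of 798 bases. Minor forms shifted too. The Atp5c1 form of 1799 bases made up 1.93% ± 0.401 in wild-type retina and 0.392% ± 0.063 in wild-type RPE/choroid. The Ndufs1 form of 2769 bases made up 2.15% ± 2.25 in wild-type retina and 7.62% ± 0.99 in wild-type RPE/choroid. These shares were picked after their values were seen and carry no test.

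Between genotypes, members moved by small amounts. In retina, edgeR called 0 of 81 tested members between knockout and wild type, where 144 of 14699 genes (0.98%) were called. At an unadjusted p under 0.05 there were 4 members higher and 1 lower, where 12.5% of all genes had such a p in either direction. DESeq2 and limma also called 0 members. The median log2 difference was 0.01 for members and -0.00 for all genes. Between knock-in and wild type 0 members were called as well, by edgeR, DESeq2 and limma, where 39 genes (0.265%) were called by edgeR. Here 8 members had an unadjusted p under 0.05, all lower in knock-in, where 4.25% of all genes were lower with such a p. Differences were negative for 63 of 81, with a median of -0.06 that was -0.021 without knock-in library 0.

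The members with the smallest p in these comparisons differed as follows. Atp5l, the g subunit of ATP synthase, stood at 375, 364 and 327 FPKM in wild-type and 308, 330 and 313 in knock-in retina, a log2 difference of -0.20 (SE 0.059, adjusted p = 0.262, edgeR). Cox7c of complex IV differed by -0.18 (SE 0.054, adjusted p = 0.272, edgeR) in the same comparison. Sdhd differed between knockout and wild-type retina by -0.16 (SE 0.060, adjusted p = 0.280, edgeR). In each of the 3 the adjusted p missed the threshold.

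Cox8b, the muscle form of subunit 8, had few fragments in retina, with 6, 8 and 8 in wild type, 36, 22 and 18 in knockout and 27, 14 and 12 in knock-in. Its FPKM were 2.36, 3.38 and 3.27 in wild type and 10.8, 5.72 and 7.07 in knockout, so that these groups did not overlap. The log2 difference between knockout and wild type was 1.35 (SE 0.391) with an adjusted p of 0.147 by edgeR, from 0.119 to 0.381 over the alternatives. In the authors' deposited table the same comparison has q = 0.0244, the only 1 of 81 members under 0.05 there, where 3.44% of all tested genes are. The summed muscle markers were at 4.58 to 8.22 FPKM in wild-type and 4.99 to 5.84 in knockout retina, and the summed lens markers at 45.5 to 782 and 485 to 9436. Of the 10 RPE markers 8 were higher in knockout retina, with a median log2 of 0.91. Of these, 4 were called higher, where 0.98% of all genes were called in either direction. The sums of the 10 markers still overlapped, at 363 to 378 FPKM in wild type and 320 to 424 in knockout. In knock-in retina 8 of these markers were higher and 0 called, where 0.265% of all genes were called, with a median of 0.65. Cox8b is itself far higher in RPE/choroid than in retina, as given above, and the part of these markers in its retinal values was not tested.

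Between knock-in and knockout retina 1 of 81 members was called, where 185 of 14699 genes (1.26%) were. It was Cox7a2l (chr17:83901257-83913673 on mm9, as listed for the gene), which encodes a factor that joins complexes III and IV into supercomplexes. It stood at 190, 185 and 206 FPKM in knockout, 151, 160 and 166 in knock-in and 174, 172 and 170 in wild-type retina, so that the 3 genotypes did not overlap and wild type lay between the mutants. Knock-in was lower than knockout by a log2 of -0.28 (SE 0.059, adjusted p = 0.0304, edgeR), that is at 82.2% of it. Against wild type the differences were 0.14 for knockout (adjusted p = 0.367, edgeR) and -0.15 for knock-in (adjusted p = 0.506, edgeR).

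The call of Cox7a2l was a marginal one, kept in 9 of 16 alternatives. DESeq2 gave the smallest adjusted p among these, 0.00176. Limma on log2(FPKM + 1) gave an adjusted p of 0.220 at a log2 of -0.28, a fit of only these libraries gave 0.0682, and leaving out knockout library 0 or 2 or knock-in library 0 or 1 gave 0.0508 to 0.111. With a term for sex the edgeR adjusted p was 0.0184, and with one for lens transcripts 0.0251. In RPE/choroid Cox7a2l stood at 217, 206 and 232 FPKM in knockout and 198, 194 and 228 in knock-in, which overlapped, with a log2 difference of -0.09 (SE 0.058, adjusted p = 0.582, edgeR).

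Of the members as a whole, 72 of 81 were lower in knock-in than in knockout retina, with a median log2 of -0.08, and in 11 every knock-in library lay under every knockout library (8.74% of all genes). Without knock-in library 0 the median was -0.0312. Other short genes were lower too, as given below by length. Among the pathway lists around the chain, Lyrm7, an assembly factor of complex III, was the 1 gene called between genotypes. It stood at 2.54, 2.56 and 2.33 FPKM in wild type, 1.65, 1.72 and 3.29 in knockout and 0.633, 1.12 and 0.784 in knock-in retina. The log2 difference was -1.58 against wild type (SE 0.261, adjusted p = 0.0216, edgeR) and -1.31 against knockout (SE 0.260, adjusted p = 0.0235, edgeR). Limma on log2(FPKM + 1) called neither, with adjusted p of 0.271 and 0.187, and a term for sex raised the first to 0.114. Leaving out knock-in library 0 or 2, or wild-type library 0 or 1, ended the first call too, at 0.0838 to 0.113. The second was lost in a fit of only these libraries and without knock-in library 0 or 2 or knockout library 2, at 0.0579 to 0.0925. In RPE/choroid, where it was not called between genotypes, Lyrm7 stood at 0.605, 2.20 and 2.90 FPKM in wild type. It had 1.81, 1.97 and 2.22 in knockout and 0.472, 0.550 and 0.967 in knock-in RPE/choroid, so that the mutants did not overlap.

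**Figure D3:**
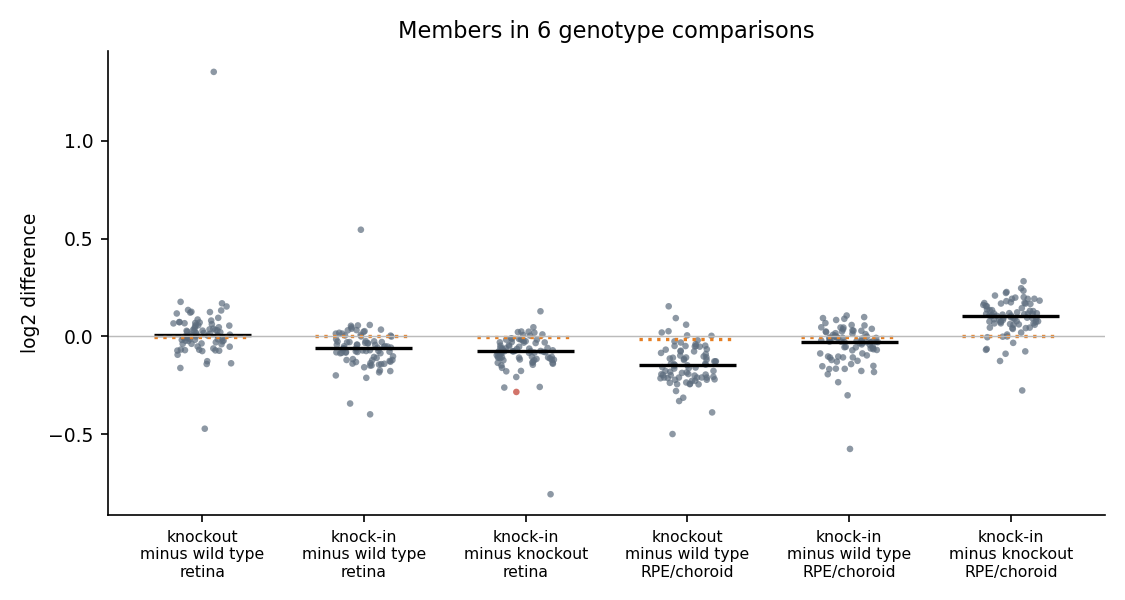
Log2 difference of each tested member (1 point per gene) in the 6 genotype comparisons, 3 libraries against 3, with a black bar at the median of members and an orange dotted bar at the median of all genes tested. The red point is Cox7a2l, the only member called, and the members of knockout RPE/choroid lie mostly under 0, with a median of -0.15.

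In RPE/choroid, the members leaned downward together in knockout mice although edgeR called none of them. Of 82 tested members 75 were lower in knockout than in wild type, with a median log2 of -0.15 against -0.01 for all genes. In 43 members every knockout library lay under every wild-type library, which held for 11.5% of all genes. The test called 0 of 82, where 73 of 15454 genes (0.472%) were called. At an unadjusted p under 0.05 there were 35 members, all lower, where 8.26% of all genes were lower with such a p. As a share of all fragments, the members took 1.29%, 1.24% and 1.22% in knockout libraries and 1.31%, 1.34% and 1.33% in wild-type libraries. The 10 summed RPE markers were also lower in knockout, at 7286 to 7965 FPKM against 9126 to 9612 in wild type, but by gene the list was mixed, with 4 higher and 6 lower, 0 called and a median log2 of -0.09. The sums of the 14 muscle markers overlapped at 4975 to 6868 and 4585 to 6545. By gene 11 of the 14 were higher in knockout, 5 of them at an unadjusted p under 0.05 and 0 called, with a median log2 of 0.15. No marker of either list was at 0 in all 3 libraries of a group. With a term for muscle transcripts the members' median was -0.17, and with one for rod transcripts -0.15. The part of muscle, rod or RPE transcripts in the members' lower values was not tested.

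The smallest p-values belonged to Atp5o, the OSCP subunit that ties the stalk of ATP synthase to its head, and to Cox7a2. Atp5o (chr16:91925468-91931875 on mm9) stood at 370, 357 and 321 FPKM in wild type, 329, 308 and 274 in knockout and 359, 330 and 337 in knock-in. Its log2 difference between knockout and wild type was -0.22 (SE 0.055, adjusted p = 0.125, edgeR). Cox7a2 stood at 328, 318 and 303 FPKM in wild type and 274, 272 and 263 in knockout, groups that did not overlap, with a log2 difference of -0.28 (SE 0.069, adjusted p = 0.127, edgeR).

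The number of calls depended on the tool and on wild-type library 2, the one with the most rod transcripts. DESeq2 called 4 members lower, Atp5o, Cox7a2, Ndufa2 and Ndufa4, with log2 differences from -0.38 to -0.21. Without wild-type library 2, edgeR called 4, Cox7a2, Ndufa4, Ndufb3 and Ndufb5, and with a term for rod transcripts it called 2, Cox7a2 and Ndufa4, while limma called 0. The last-named Ndufa4 stood at 944, 940 and 922 FPKM in wild type and 765, 793 and 841 in knockout. These genes were named after their values were seen, and the share of all genes called under these other settings was not determined.

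By complex, 35 of 36 genes of complex I were lower in knockout RPE/choroid with a median of -0.18, 8 of 8 of complex III with -0.13, 14 of 17 of complex IV with -0.16 and 15 of 17 of ATP synthase with -0.14. In complex II 3 of 4 were lower, and Sdha had 0.09. The neighbouring pathways leaned less: the median was -0.05 for 29 assembly factors, -0.05 for 18 electron carriers and entry enzymes, 0.01 for 18 citrate cycle genes and -0.00 for 17 glycolysis genes, with no call in any of these lists by edgeR. At an unadjusted p under 0.05 these lists held 2, 3, 1 and 2 genes, where 15.5% of all genes had such a p. The lists were not matched to the members by transcript length, with which the knockout difference varied as given below.

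**Figure D4:**
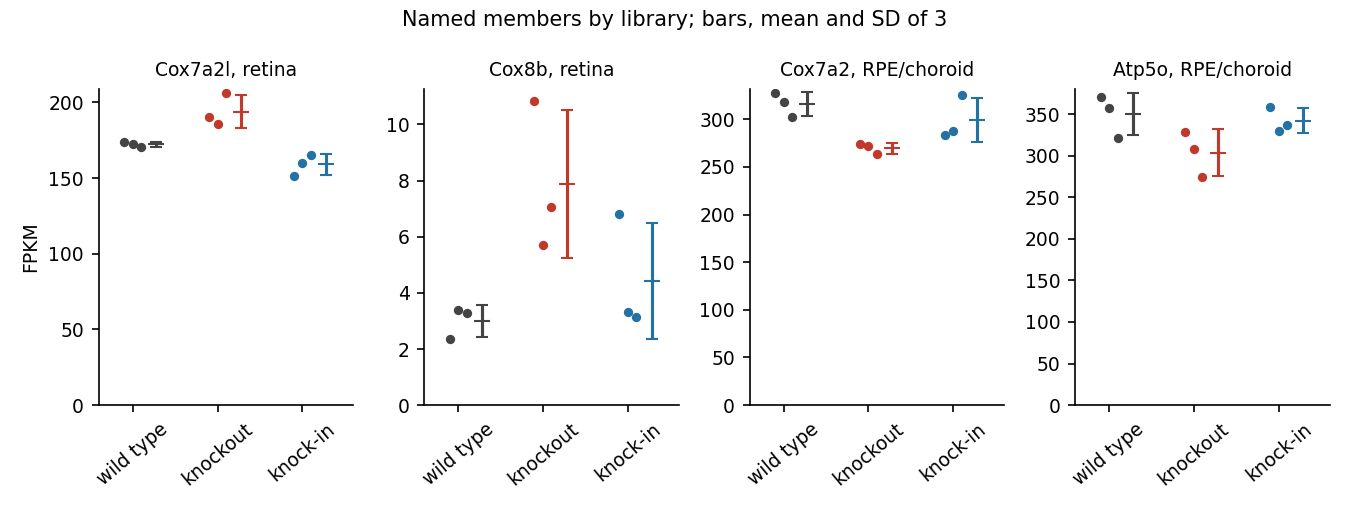
FPKM by library for Cox7a2l and Cox8b in retina and Cox7a2 and Atp5o in RPE/choroid, 1 point per library with the mean and SD of 3 beside it, axes from 0. The knockout points of Cox7a2l lie above and the knock-in points below those of wild type, and the knockout points of Cox7a2 lie below all wild-type points.

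The size of the knockout difference went with transcript length. Among 44 members whose main transcript is under 700 bases, 43 were lower, with a median log2 of -0.19, and among 26 members of 700 up to 1500 bases 24 were lower, with a median of -0.14. The 12 members of 1500 bases or more had a median of -0.04, and 8 of them were lower. Ndufs1, the largest subunit of complex I, differed by 0.06 and Atp5a1, the alpha subunit of ATP synthase, by 0.02.

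Genes outside the chain showed the same gradation with length. The median was -0.20 in 436 other genes under 700 bases, of which 80.7% were lower, -0.12 in 2278 genes of 700 up to 1500 bases and 0.01 in 12658 longer ones. Members and all other genes of like length thus had medians within 0.05 of each other on the log2 scale. For the others with a mean of at least 4 on the log2 scale of counts per M, the medians were -0.22, -0.13 and 0.02. Of the short ones among these, 91.4% were lower.

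The other comparisons differed in how far they followed length. In knock-in minus knockout RPE/choroid the members' medians in the 3 length classes, shortest first, were 0.12, 0.09 and 0.04, beside 0.12, 0.09 and -0.01 for other genes. In knock-in minus wild-type RPE/choroid they were -0.03, -0.04 and 0.02, beside -0.08, -0.03 and 0.00 for other genes.

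In retina, knock-in minus knockout gave -0.11, -0.06 and -0.03 for members and -0.08, -0.04 and 0.01 for other genes. Of the 174 other short genes with a mean of at least 4 on the log2 scale of counts per M, 80.5% were lower in knock-in, with a median of -0.10. Knock-in minus wild type gave -0.08, -0.06 and -0.02 for members and -0.03, -0.03 and 0.01 for other genes, while knockout minus wild type gave 0.01 in each class of members and 0.04, 0.00 and -0.01 for other genes.

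**Figure D5:**
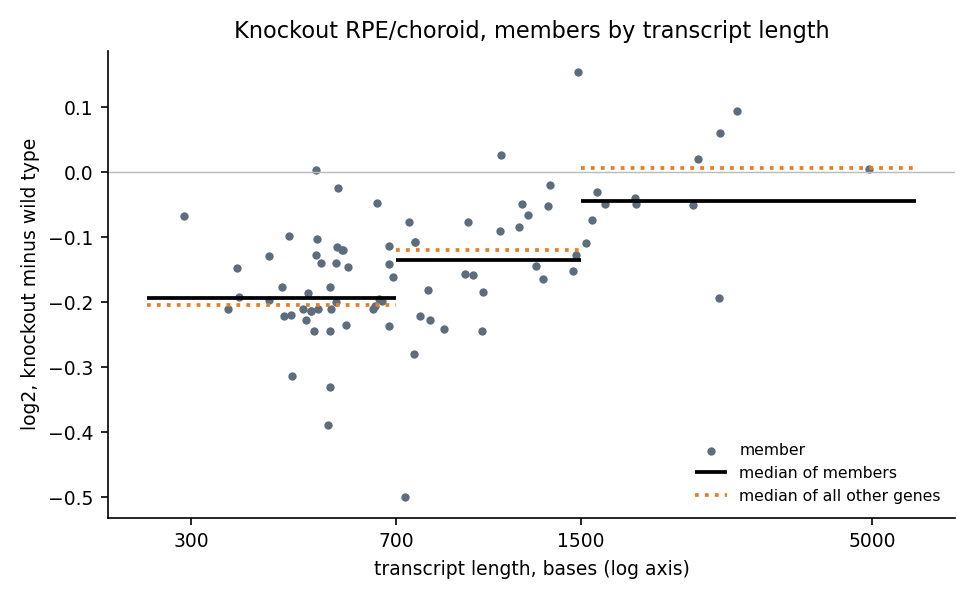
Log2 difference between knockout and wild-type RPE/choroid for each tested member against the length of its main transcript on a log axis. Black bars are medians of members and orange dotted bars medians of all other genes in the classes under 700, 700 up to 1500 and 1500 or more bases, and both rise from about -0.2 to about 0 with length.

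Knock-in RPE/choroid stood closer to wild type. Of 82 members 0 were called by edgeR, DESeq2 or limma (0.0647% of all genes by edgeR), 1 had an unadjusted p under 0.05 (5.53% of all genes), and the median was -0.03 with 58 lower. That median turned to 0.0078 without knock-in library 1. Leaving out knock-in library 2 gave -0.0633, and leaving out wild-type library 2 gave -0.0514. The smallest p belonged to Uqcrq, a small subunit of complex III, at a log2 of -0.23 (SE 0.105, adjusted p = 0.875, edgeR) and to Atp5sl at -0.18 (SE 0.079). Uqcrq spread more widely in knock-in, with 269, 228 and 206 FPKM, than in wild type, with 264, 264 and 250.

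Between knock-in and knockout RPE/choroid, which share the knockout libraries with the comparison above, 73 of 82 members were higher in knock-in, with a median of 0.11. In 25 every knock-in library lay over every knockout library, against 11.3% of all genes. Again 0 members were called by edgeR, DESeq2 or limma, where 0.453% of all genes were by edgeR, and 20 had an unadjusted p under 0.05, all higher, where 6.81% of all genes were higher with such a p. Without knock-in library 2 the median was 0.0686. Ndufb5, an accessory subunit of complex I, had the smallest p, at 124, 122 and 137 FPKM in knockout and 139, 134 and 172 in knock-in, with a log2 difference of 0.23 (SE 0.076, adjusted p = 0.260, edgeR). Atp5o followed at 0.17 (SE 0.055, adjusted p = 0.264, edgeR).

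Whether genotype acted differently in the tissues was tested as an interaction over all 18 libraries. For knockout, 0 of 82 members were called by edgeR (0.136% of all genes), 17 had an unadjusted p under 0.05, all in the direction of a lower value in RPE/choroid (6.94% of all genes), and the median was -0.13. DESeq2 called 3, Atp5o, Cox8b and Ndufb10, and without wild-type RPE/choroid library 2 edgeR called Ndufa1. For these fits the share of all genes called was not determined. For knock-in, 0 members were called by edgeR (0.0555% of all genes) and by DESeq2, and 4 had an unadjusted p under 0.05 (5.98% of all genes), with a median of 0.02. A difference in genotype effect between the tissues was thus not shown for any member by edgeR with all libraries.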

How the data were processed

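Retina and RPE/choroid RNA was read as 100 bp pairs after removal of ribosomal RNA with a stranded kit, per the labels' protocols. Per the submitters' processing notes, TopHat, Bowtie2, Cufflinks and the mm9 assembly were used; for their versions, the annotation and the use of strand, the sources used here give nothing. The deposited tables give fragments per gene and library before scaling. These are estimated counts per the file headers (98.5% whole in retina, 98.4% in RPE/choroid; the rest were rounded). The authors' scaled values per gene and transcript are FPKM per the file headers. Their comparison files hold p-values and q-values, deposited as such, and the deposited transcript tables give lengths in bases (another unit, per the file headers). Tables number libraries 0 to 2 and labels 1 to 3, with nothing linking them.

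The fragments were compared by edgeR 4.0.16 under R 4.3.3 (robust quasi-likelihood, TMM, filterByExpr), 9 libraries per tissue together and all 18 for tissue differences and interactions, with Benjamini-Hochberg adjustment over all genes and calls under 0.05; 81 members passed the filter in retina and 82 in RPE/choroid and in the joint fit. SEs are the log2 difference over the square root of F. No pair of libraries of a group was a copy. The models were tested on simulated data. DESeq2 1.42.0, limma 3.58.1 on log2(FPKM + 1) and log2(FPKM + 0.1), other scaling and filters, terms for sex, rod, muscle and lens transcripts, a block by table number, fits of the compared libraries and leaving out each library were alternatives. Promoter windows are from RefSeq, matched by symbol or a unique synonym for 69 of 84 members.

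Named genes are Abca4, every member called between genotypes or else the 2 with the smallest p, the 3 highest and 3 lowest called members of each complex between tissues, isoform pairs, the highest and lowest level of each complex, and up to 2 called genes of each other list. The members, gene lists and tests were chosen with earlier results of these data known.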

Additional observations from a re-analysis of the deposited data

How the results depend on the processing

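Calls between genotypes rested on small differences and 3 libraries a group, so single tools and libraries moved them. The number of members called between knock-in and knockout retina was 1, and 0 with limma on log2(FPKM + 1) or log2(FPKM + 0.1) and in a fit of only the compared libraries, and it ranged from 0 to 1 when single libraries were left out. Between knockout and wild-type RPE/choroid it was 0, with 4 by DESeq2, 2 with a term for rod transcripts and 0 to 4 with single libraries left out. For the knockout interaction it was 0, with 3 by DESeq2 and 0 to 1 with single libraries left out. No share of all genes called was determined for the alternatives. The lone differences that turned sign had no call: Cox6a1 between wild-type tissues and Abca4 between knock-in and wild-type RPE/choroid. With single libraries left out they ranged from -0.0019 to 0.12 and from -0.378 to 0.021, turning without wild-type RPE/choroid library 2. The other 734 values of named genes kept their direction, 20 of them losing a call (all of Cox7a2l or Lyrm7) and 10 gaining one (of Abca4, Cox7a2 or Atp5o). The median difference between tissues stayed between 0.69 and 0.75, and that of knockout RPE/choroid between -0.18 and -0.12, with single libraries left out. The other medians were less stable. They ran from -0.0633 to 0.0078 for knock-in minus wild-type RPE/choroid, turning sign without knock-in library 1, from -0.088 to -0.021 for knock-in minus wild-type retina and from -0.1089 to -0.0312 for knock-in minus knockout retina, both nearest 0 without knock-in library 0. They ran from 0.0686 to 0.1467 for knock-in minus knockout RPE/choroid and from -0.0061 to 0.0367 for knockout minus wild-type retina. With a term for sex the medians of knock-in minus wild type were -0.1008 in retina and -0.0636 in RPE/choroid, and that of knock-in minus knockout RPE/choroid was 0.0681. With a term for muscle transcripts knock-in minus wild-type RPE/choroid had -0.076.

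Deviations from the group means correlated from -0.468 to 0.243 over 18 pairs of libraries of the same table number. FPKM of Atp5s rose with the number in each genotype of both tissues. In RPE/choroid they were 6.92, 7.66 and 12.7 in wild type, 7.58, 8.69 and 12.6 in knockout and 6.83, 7.94 and 13.0 in knock-in. In retina they were 6.70, 9.14 and 9.79 in wild type, 7.43, 7.87 and 11.7 in knockout and 7.49, 8.32 and 11.1 in knock-in. In RPE/choroid, FPKM of Ndufa13 fell with the number in each genotype, while those of Cox7a2 fell in wild type and knockout and rose in knock-in. Whether the numbers pair the libraries was thus not settled. With the number as a replicate block, the members called remained 0 in 5 genotype comparisons and 1 between knock-in and knockout retina, and Cox7a2l had an adjusted p of 0.00627 by edgeR.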
